A study of Sus scrofa with 2 samples.

Results

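The genes described here encode the machinery of DNA replication and repair. They were chosen by a rule on symbols, with earlier results of these data known. The rule took the MCM, ORC, RFC, RPA, GINS, RAD5x, XRCC, ERCC and MSH families and the Fanconi genes with a single letter from A to M. It also took the numbered subunits of polymerases alpha, delta and epsilon, and 13 single genes such as PCNA, TOP2A, BRCA1, ATM and TYMS. Reference names gave 87 such genes in the pig, and 78 of them had a value. The whole table lists 25880 gene identifiers, and a symbol could be paired with 14857. The remaining 9 genes were not analysed here. The identifiers paired with PCNA, FEN1, GINS2, ERCC1 and RAD51D were not among those of the table, and RRM2, ERCC5, ERCC6 and XRCC4 had no paired identifier. The catalytic subunit gene POLE and FANCD2 fall outside the naming rule and are given further on among the other pathway genes.

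The cells were PSI, a single clone of smooth muscle cells from pig ileum, kept in DMEM with 10% fetal bovine serum and 1% antibiotics. RNA-seq libraries were made in duplicate from this clone, which gave 1 group of 2 libraries and no second condition, tissue or cell type. The labels name no separate cultures, so the spread between the libraries may be technical. Levels are in FPKM, a unit corrected for library size and for the length of each annotated gene. Comparisons between genes therefore also depend on whether that length is right for the gene, which was not tested. Recovered library totals were 35176565 in replicate 1 and 32217729 in replicate 2. At these totals a single read added 0.0284 and 0.0310 FPKM to a gene of 1 kb. Of 6 smooth muscle markers 3 were abundant, with ACTA2 at 702 and 685 FPKM, ACTG2 at 489 and 468 and CNN1 at 253 and 255. The other 3 were low, with TAGLN at 5.34 and 5.58, DES at 2.74 and 3.06 and MYH11 at 0.461 and 0.522. Endothelial PECAM1 had 1.92 and 1.60 FPKM, while CDH5 of the same cell type was listed at 0. Markers of epithelium (CDH1, VIL1, EPCAM), leukocytes (PTPRC, CD3E), neurons (SNAP25, STMN2) and germ cells (DDX4, SYCP3) were at 0 or no higher than 0.0326.

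Replication starts at origins, which the origin recognition complex (ORC) marks and on which the MCM ring, the replicative helicase, is loaded before S phase. Polymerases alpha, delta and epsilon then copy the opened strands with the help of a sliding clamp, its loader RFC and the single-strand binding protein RPA. Many of these genes are transcribed under E2F control in dividing cells, while repair pathways such as nucleotide excision and mismatch repair act in all nucleated cells. In RNA from a whole culture, the number of cells in S phase and the RNA of each such cell cannot be told apart.

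Nearly all measured members were expressed, and the median of the replication genes stood above that of the repair genes. A level of 1 FPKM or more in both libraries was reached by 73 of the 78 members, compared with 61.5% of all identifiers with a symbol. A mean of 10 FPKM or more was found for 34 members (43.6%), compared with 33.3% of all identifiers with a symbol. The median of the members was 8.17 FPKM, and that of all identifiers with a symbol was 3.90. Among the 9212 of these identifiers that averaged at least 1 FPKM, the median was 11.2, and 53.7% averaged 10 or higher. Against this narrower background the median of all members was lower, though it includes 5 members under 1 FPKM. The replication median (20.2) lay above 11.2 and the repair median (4.82) below it. All 37 measured replication members reached 1 FPKM, with a median of 20.2, and 25 of them had a mean of 10 or more. Of the 37 repair members 32 reached 1 FPKM, with a median of 4.82, and 9 had a mean of 10 or more. On the log2(FPKM + 1) scale the replication median lay 1.86 above the repair median, 1.84 in replicate 1 and 1.93 in replicate 2. Genes are not replicates, so this difference is a description of the clone with no p-value. The classes and role groups were drawn up with earlier results of these data known. It did not hold for every role group. Origin recognition, a replication group, had a median of 8.01 FPKM. Nucleotide excision repair (9.64) and end joining and single-strand break repair (12.4) had higher medians.

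The highest members were all replication genes and the lowest all repair genes. A mean of at least 30 FPKM was reached by 12 members, all of the replication class: RRM1, MCM6, MCM5, MCM7, RFC2, POLE4, POLE3, MCM3, MCM2, RPA1, TOP2A and MCM4. The 5 members under 1 FPKM, all of the repair class, were FANCF, MSH5, RAD54B, FANCG and RAD51AP2. The 4 checkpoint kinases were counted in neither class and lay between 2.77 and 6.23 FPKM on average. Overlap was taken between whole gene spans, introns included and on either strand. Values of genes that overlap a neighbour are uncertain, since reads falling in both may not have been counted. By the RefSeq annotation these were MCM4, MCM7, MCM9, ORC1, POLD4, RFC1, RFC3, RFC4, RFC5, BRCA1, RAD50, RAD51AP1, RAD51B, RAD52, RAD54B, RAD54L, RAD54L2, FANCA, FANCF, FANCI, FANCL, FANCM, MSH3, MSH6, ERCC2, ERCC4 and CHEK2. FANCE, MCM5 and XRCC3 could not be placed on a chromosome by symbol, so their neighbours are unknown.

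**Figure D1:**
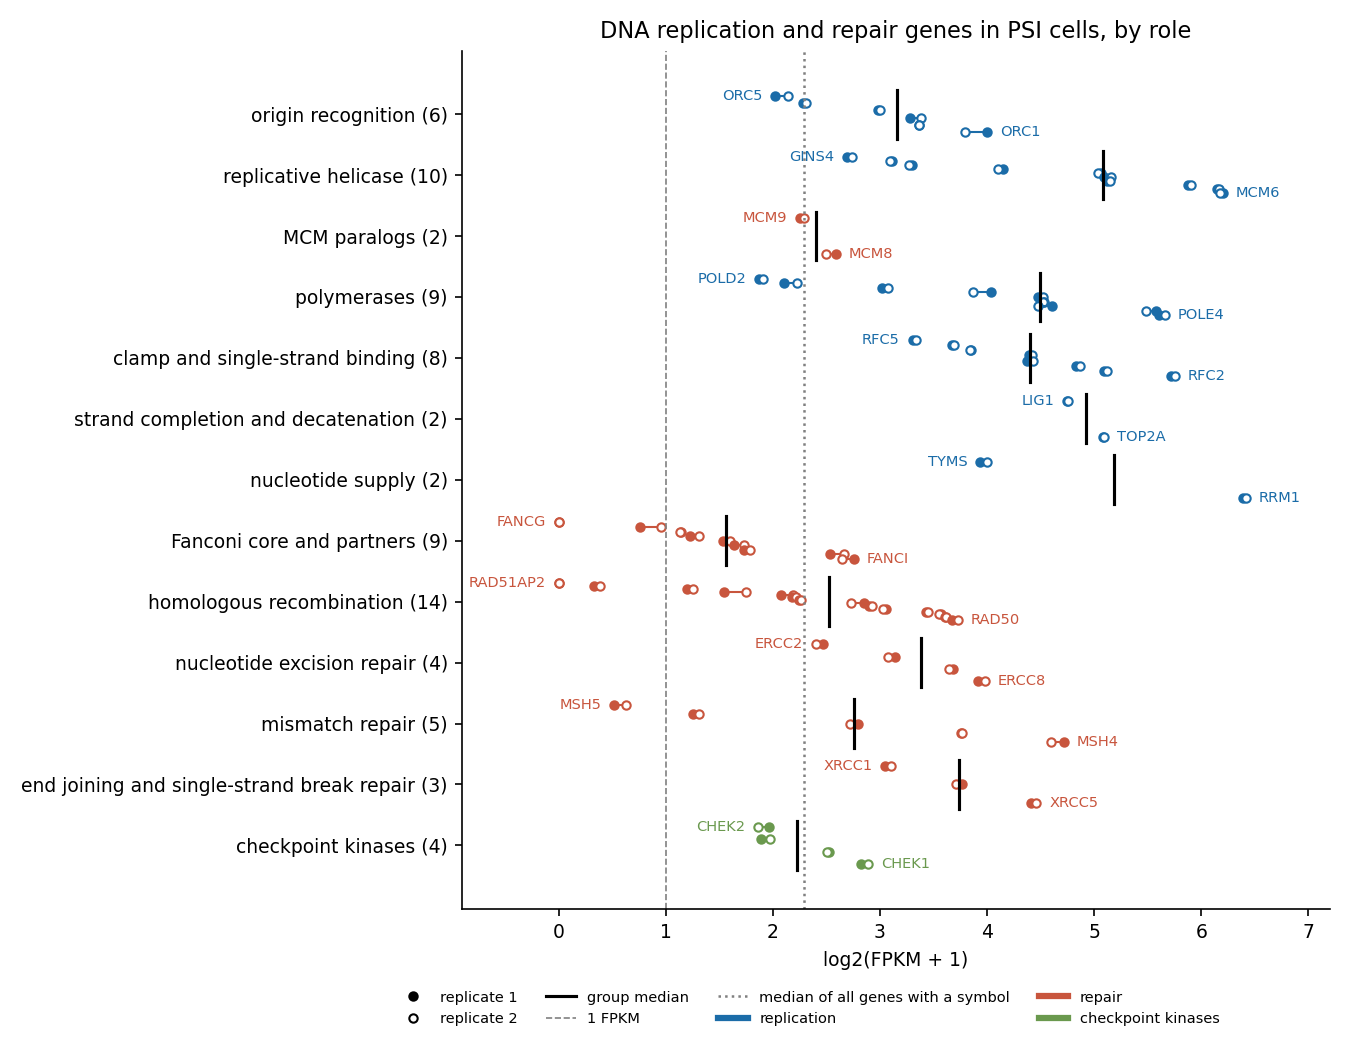
Level of each of the 78 measured members on the log2(FPKM + 1) scale, in rows by role with the number of members in brackets. Filled and open points are replicates 1 and 2 of 1 gene, black bars are group medians, the dashed line is 1 FPKM and the dotted line the median of all identifiers with a symbol. The nucleotide supply and helicase rows have the highest medians, at 5.18 and 5.09, and the Fanconi row the lowest, at 1.56.

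Origin recognition genes were expressed at low to moderate levels, with ORC1 highest. ORC1, an ATPase subunit of the complex, had 15.0 FPKM in replicate 1 and 12.9 in replicate 2. ORC6 had 9.29 and 9.31, and ORC3 had 8.69 and 9.42. These neighbours in the order overlapped between libraries, while ORC1 lay above them in both. ORC2 followed at 6.92 and 7.02, ORC4 at 3.86 and 3.94 and ORC5 at 3.06 and 3.42. The highest subunit gene, ORC1, was 4.91-fold and 3.76-fold above the lowest, ORC5, in replicates 1 and 2.

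The genes of the MCM ring were among the most abundant members, and its 6 subunit genes formed a higher and a lower trio. MCM6 had 72.5 and 71.3 FPKM in replicates 1 and 2, MCM5 had 69.7 and 70.9, and MCM7 had 57.7 and 58.7. MCM6 exceeded MCM5 by 1.04-fold and 1.01-fold, a difference of the size seen between libraries. The lower trio was MCM3 at 33.8 and 34.4, MCM2 at 33.2 and 34.7 and MCM4 at 32.4 and 31.7. MCM2 and MCM3 overlapped between libraries, and MCM4 lay just under both. From MCM6 to MCM4 the step was 2.24-fold and 2.25-fold, the smallest range among the complexes of over 3 subunits described here. The factors that join the ring to make it an active helicase were lower. MCM10, needed to start unwinding, had 8.81 and 8.62 FPKM. GINS1 had 16.7 and 16.1, GINS3 7.65 and 7.52 and GINS4 5.46 and 5.68, so the measured GINS genes spanned 3.07-fold and 2.84-fold. Of the ring genes placed in RefSeq, MCM4 and MCM7 overlap another gene and MCM2, MCM3 and MCM6 do not.

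**Figure D2:**
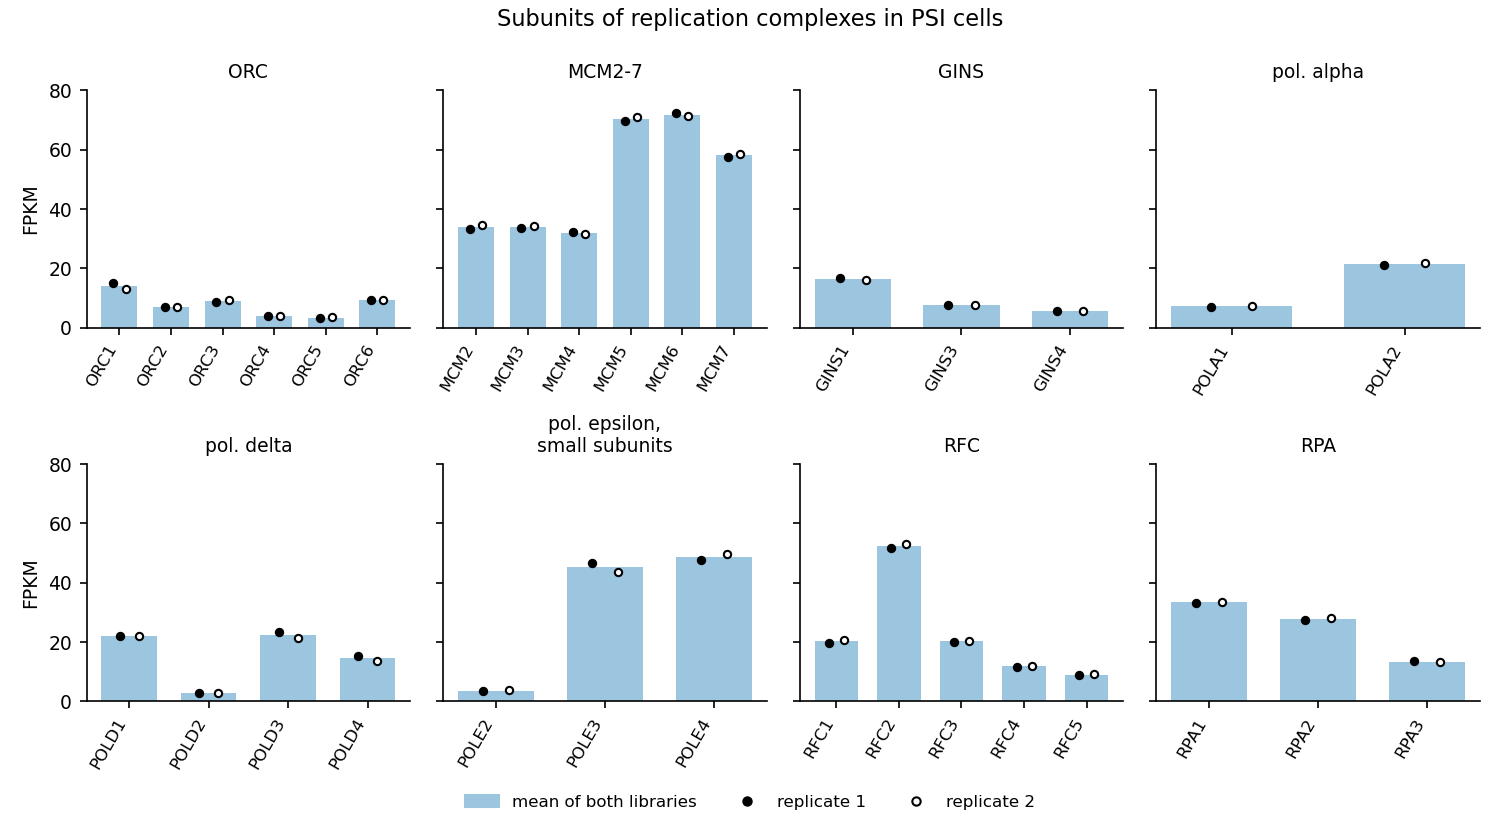
FPKM of the measured subunit genes of 8 replication complexes, with bars for the mean of both libraries and points for replicates 1 (filled) and 2 (open), on 1 common axis from 0. MCM5, MCM6 and MCM7 stand above MCM2, MCM3 and MCM4, and POLD2 and POLE2 are the low subunits of their polymerases.

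Subunit genes of each polymerase differed more than those of the MCM ring did. POLA1, the catalytic subunit of the polymerase that lays down primers, had 7.08 and 7.42 FPKM, and its partner POLA2 had 21.2 and 21.9, a 2.99-fold and 2.95-fold step. For polymerase delta, which copies the lagging strand, the catalytic gene POLD1 stood at 22.1 and 21.9. The accessory subunit gene POLD3 (23.4 and 21.2) overlapped that level, and POLD4 was lower at 15.4 and 13.6. POLD2, also an accessory subunit, had 2.65 and 2.76 FPKM. It was the lowest replication member, 8.84-fold and 7.69-fold under POLD3. The small subunits of polymerase epsilon, the leading strand enzyme, showed the widest step. POLE4 had 47.8 and 49.6 FPKM and POLE3 46.7 and 43.8, and both encode histone-fold proteins. POLE2 had 3.31 and 3.67, or 14.5-fold and 13.5-fold less than POLE4. RefSeq shows no gene overlapping POLD2, POLE2, POLE3 or POLE4.

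The clamp loader and RPA genes were at intermediate to high levels. RFC2, a small subunit of the loader, had 51.7 and 53.0 FPKM in replicates 1 and 2. RFC1, the large subunit, had 19.8 and 20.6 and overlapped RFC3 at 19.9 and 20.4. RFC4 (11.7 and 11.9) and RFC5 (8.89 and 9.07) were lower, so that RFC2 stood 5.82-fold and 5.84-fold above RFC5. The RPA genes descended from RPA1, the main DNA-binding subunit, at 33.0 and 33.7 through RPA2 at 27.4 and 28.2 to RPA3 at 13.5 and 13.3. None of the 3 overlapped another in any library. LIG1, the ligase that seals Okazaki fragments, had 25.9 FPKM and 26.0 FPKM. TOP2A, the topoisomerase that untangles sister chromatids, had 33.0 and 33.1.

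Nucleotide supply contained the most abundant member. RRM1, the large subunit of ribonucleotide reductase, had 82.8 and 84.5 FPKM (83.6 ± 1.21, SD, n = 2), and 3.70% of identifiers with a symbol had a higher mean. TYMS, which makes the thymine nucleotide, had 14.3 and 14.9 FPKM. RRM1 lay 5.78-fold and 5.65-fold above TYMS. The small subunit that pairs with RRM1 in S phase, RRM2, was not analysed here. RRM2B, the alternative small subunit used outside S phase and no member of the rule, had 0.952 and 1.06 FPKM.

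The Fanconi genes that match the rule, which act on crosslinked DNA, were the lowest role group, with a median of 1.96 FPKM. Of these 9 genes 7 reached 1 FPKM in both libraries. The group is not the whole pathway: FANCD2, outside the rule, was higher and is given further on. FANCI, part of the complex that is ubiquitinated at crosslinks, had 5.74 and 5.26 FPKM. FANCA, a core complex subunit, had 4.79 and 5.36 and overlapped it. FANCE, FANCB, FANCM, FANCL and FANCC lay between 1.19 and 2.45 in the libraries, among them FANCL, the ubiquitin ligase of the core. FANCF had 0.691 and 0.933 FPKM, from at least 118 and 146 reads, and FANCG was listed at 0 in both libraries. FANCA exceeded FANCF by 6.94-fold and 5.74-fold. The length behind the FPKM of FANCF was at least 4857 bp. Its whole RefSeq span, from 36884701 to 36886661 on chromosome 2, is shorter than that. The same reads over a shorter length would give a higher FPKM, so its level and this fold depend on the gene model. A listing at 0 does not show absence in this table. APEX1, a base excision nuclease used in all cells, had 0.0478 in replicate 1 and 0 in replicate 2. The RefSeq span of APEX1 overlaps another gene and that of FANCG overlaps none. The cause of either listing was not tested.

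Homologous recombination genes spread from 0 to 12.2 FPKM. RAD50, of the complex that processes broken ends, had 11.8 and 12.2 FPKM and BRCA1 had 10.9 and 10.7. BRCA2, which acts later in the pathway, had 3.22 and 3.56, and BRCA1 lay 3.39-fold and 3.004-fold above it. RAD51AP1, an accessory factor of strand pairing, had 7.33 and 7.16. RAD54L, a motor protein of recombination, had 6.21 and 5.64, against 0.253 and 0.310 for its relative RAD54B from at least 8 and 9 reads. A family of mediator genes comprised XRCC3 (6.45 and 6.59), RAD51B (3.73 and 3.80), XRCC2 (3.52 and 3.64) and RAD51C (1.92 and 2.36). Their order was the same in both libraries, with a span of 3.35-fold and 2.80-fold. RAD52 had 1.30 and 1.39, from at least 53 and 52 reads. RAD51AP2 was listed at 0. RAD54L2 matched the rule by its symbol and had 11.2 and 11.3 FPKM, though it was first described as a partner of the androgen receptor. The paired helicase relatives MCM8 (5.01 and 4.63) and MCM9 (3.78 and 3.88), which serve recombination, stood far below the MCM ring genes.

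In nucleotide excision repair, which removes bulky damage, the 4 measured genes were all above 4 FPKM. ERCC8, which acts where transcription stalls, had 14.1 and 14.8 FPKM. The helicase genes of TFIIH differed, with ERCC3 at 11.8 and 11.5 and ERCC2 at 4.52 and 4.28. ERCC4, the catalytic part of an incision nuclease, had 7.81 and 7.44. End joining and single-strand break repair lay in a similar range. The Ku genes XRCC5 (20.2 and 21.0) and XRCC6 (12.6 and 12.1), whose products form a heterodimer, differed by 1.60-fold and 1.74-fold, and the scaffold gene XRCC1 had 7.29 and 7.58.

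Mismatch repair gave the value that stood most apart from its partners. MSH6, which serves the recognition of single mismatches, had 12.5 and 12.6 FPKM and MSH3, which serves that of larger loops, had 1.39 and 1.48. MSH6 thus exceeded MSH3 by 8.99-fold and 8.50-fold. MSH4 and MSH5 form a heterodimer known for crossovers in meiosis. The identifier paired with MSH4, ENSSSCG00000003775, had 25.3 and 23.3 FPKM from at least 1878 and 1583 reads, the highest level of any repair member. MSH5 had 0.431 and 0.547 from at least 43 and 50 reads, 58.6-fold and 42.5-fold less. Other meiotic genes were near 0: DMC1 had 0.126 and 0.138 FPKM, and SYCP1, SYCP3, SPO11, HORMAD1 and TEX11 were listed at 0. The germ cell marker DDX4 had 0.0326 and 0.0119. RefSeq places MSH4 on chromosome 6 of Sscrofa11.1 from 137410820 to 137524459, with no overlapping gene. The nearest gene, RABGGTB, starts after a gap of 603 bases, and was not analysed here since no identifier carried its symbol. Within 50 kb, ACADM had 38.1 and 36.9 FPKM and ASB17 was listed at 0. Identifiers and positions were joined by symbol, and whether the reads of this row come from MSH4 itself was not tested.

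The checkpoint kinases were low and close together. CHEK1, the effector kinase of the replication checkpoint, had 6.07 and 6.40 FPKM and CHEK2, its counterpart in the response to breaks, 2.91 and 2.63. ATM, the upstream kinase for breaks, had 4.75 and 4.68. ATR, the upstream kinase for stalled forks, had 2.70 and 2.92 and overlapped CHEK2.

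**Figure D3:**
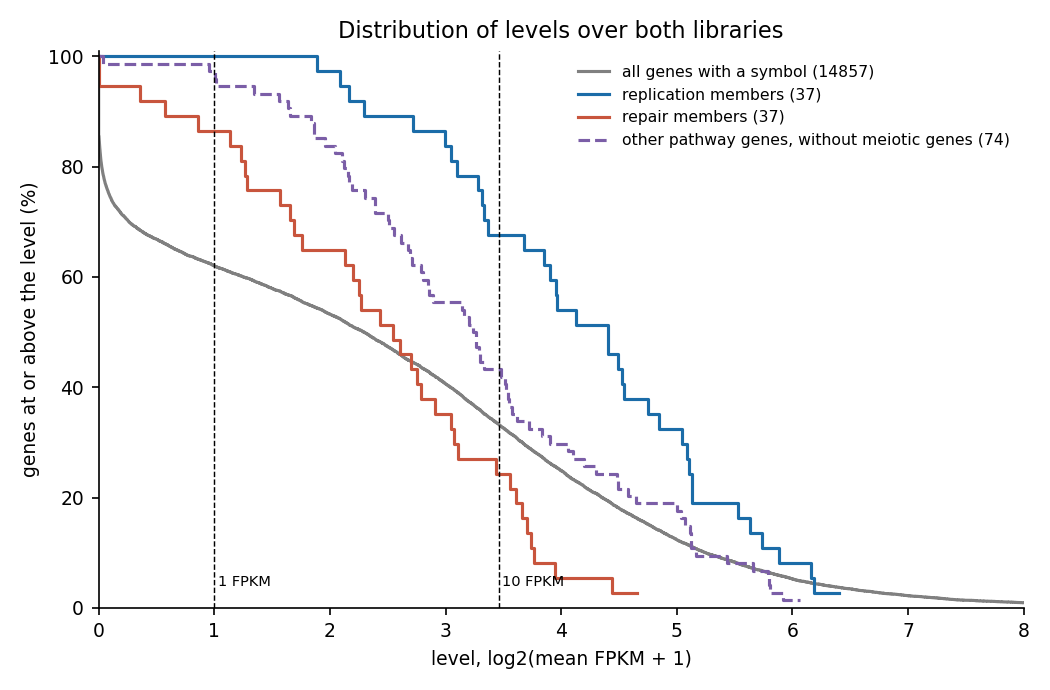
Share of genes (%) at or above each level, where the level is log2(mean FPKM + 1) over both libraries, for all identifiers with a symbol, replication members, repair members and the other pathway genes without the meiotic list. At 10 FPKM the replication line is at 67.6%, the repair line at 24.3% and the line of all genes at 33.3%.

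The other genes of these pathways, in lists drawn up beside the members, were also mostly expressed. Some of them overlap another gene in RefSeq, so their values are uncertain in the same way as those of such members. Among these are TOPBP1, RNASEH2B, CDC7, POLE, FANCD2, UHRF1, DDB1 and AURKB. Outside the meiotic list, 70 of 74 measured genes reached 1 FPKM in both libraries, against 61.5% of all identifiers with a symbol, and their median was 8.53 FPKM. In the list for licensing and the fork, all 19 measured genes reached it. The median of this list was 8.61 FPKM, lower than the 20.2 of the replication members. A mean of 10 FPKM or more was found for 8 of the 19 (42.1%), compared with 33.3% of all identifiers with a symbol. TOPBP1, a checkpoint and origin firing factor, was highest at 48.6 and 50.6 FPKM, followed by TOP2B at 40.6 and 43.8 and RNASEH2B at 34.7 and 32.9. CDC7 (2.785 and 2.996), CDC6 (2.02 and 2.20), a loader of the MCM ring, and TICRR (1.43 and 1.64) were lowest. POLE, the catalytic subunit of polymerase epsilon, had 13.9 and 14.0, which lay 4.21-fold and 3.81-fold above POLE2.

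Nucleotide synthesis was represented by TK1 (31.6 and 31.9), DUT (23.5 and 24.6), DTYMK (12.1 and 12.2), SLC29A1 (8.005 and 7.901) and RRM2B. All 7 chromatin assembly genes reached 1 FPKM. UHRF1 (35.2 and 34.8) and DNMT1 (33.7 and 33.9), which copy DNA methylation to the new strand, led the list with NASP (23.3 and 22.4), and CHAF1B (13.5 and 13.0), ASF1B (10.88 and 10.9997) and ASF1A (5.30 and 4.47) closed it. All 12 Fanconi and recombination partners reached 1 FPKM, from FANCD2 (22.0 and 21.0), UBE2T (11.08 and 11.47) and NBN (10.7 and 10.6) to BARD1 (3.46 and 3.22), WRN (3.16 and 3.09) and SLX4 (1.94 and 1.97). FANCD2 was 3.83-fold and 3.99-fold above FANCI, with which it forms a heterodimer. BRCA1 was 3.16-fold and 3.32-fold above its partner gene BARD1.

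Mismatch and excision partners all reached 1 FPKM in both libraries. DDB1, a ubiquitin ligase adaptor, had 66.2 and 65.6 FPKM, and PMS1 had 6.41 and 6.44. The lowest were DDB2 (3.37 and 3.22), XPA (2.65 and 2.60) and MLH3 (2.02 and 2.29). Of the base excision and end joining partners 8 of 9 reached the level, led by PARP1 (33.7 and 33.6), LIG3 (16.5 and 15.8) and UNG (15.3 and 16.0). LIG4 (3.69 and 4.17) and PRKDC (2.57 and 2.56) were low, and PRKDC, the kinase that Ku recruits, lay 7.89-fold and 8.22-fold under XRCC5. Of 6 translesion genes 5 reached it, with POLH (10.5 and 10.4), RAD18 (9.87 and 10.5) and REV1 (9.32 and 8.20) highest and POLK (5.44 and 5.63), REV3L (2.60 and 2.68) and POLI (1.17 and 0.868) lowest.

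Of 8 measured markers of dividing cells 5 had a mean of 10 FPKM or more, compared with 33.3% of all identifiers with a symbol. MKI67 and CCNA2, also on the list, had no paired value and were not analysed here. BIRC5 had 58.6 and 60.2 FPKM, E2F1, the transcription factor of S phase genes, 54.9 and 55.1, and AURKB 53.1 and 56.5. CCNE2 (8.43 and 8.79), CCNE1 (5.61 and 5.30) and E2F2 (0.835 and 1.029) were the lowest of 8 measured. A level of 1 FPKM or more in both libraries was reached by 7 of the 8, compared with 61.5% of all identifiers with a symbol. The list median was 43.5 FPKM, above the 20.2 of the replication members.

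**Figure D4:**
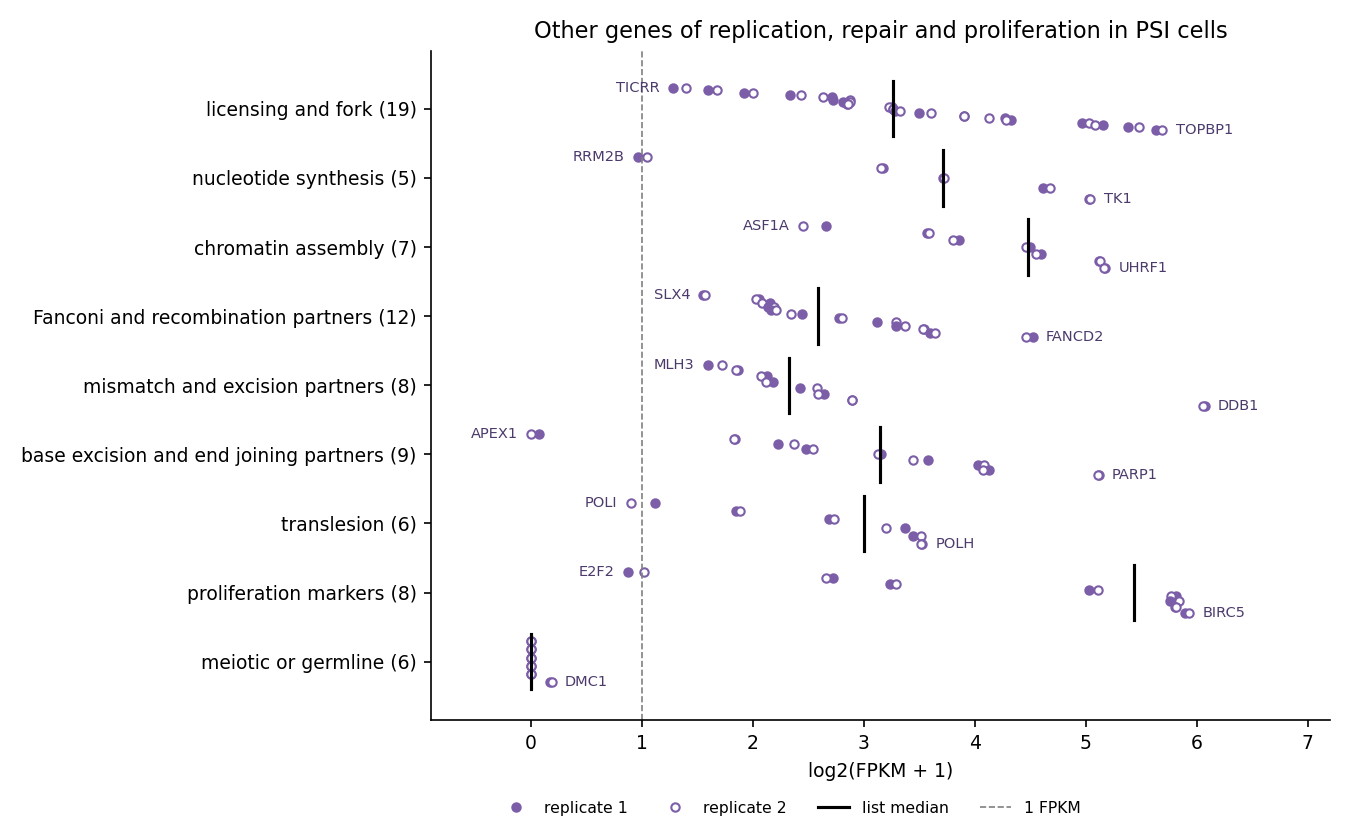
Level on the log2(FPKM + 1) scale of 80 measured genes in 9 lists of other pathway genes, with filled and open points for replicates 1 and 2 and black bars for list medians. The median of the proliferation markers lies furthest right, and the meiotic list lies at or near 0.

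The duplicate libraries gave nearly equal values for the members. The median coefficient of variation was 2.71% over the 73 members at 1 FPKM or more, compared with 2.41% over all such identifiers with a symbol. The largest difference among these 73 was that of RAD51C, at 1.23-fold. Of the 73 members 48 (65.8%) were higher in replicate 2, compared with 52.9% of all identifiers with a symbol at that level, a description without a test. A two-sided exact binomial test of recovered reads, Benjamini-Hochberg adjusted over all 16327 genes with reads, called 1.11% of all genes and 1 of 76 members with reads (1.32%), a share near that of all genes. The member was ORC1, with at least 1607 and 1262 reads (exact test, adjusted p = 0.00899). RefSeq places ORC1 in a span that overlaps 1 other gene. A call of this kind sets 1 library against the other and says nothing of a condition. The test and the intervals cover counting error alone, because each side is 1 library and variation between samples is not modelled. The labels name no molecular identifiers, so reads copied from 1 molecule may have been counted more than once. Each member at 1 FPKM or more had at least 52 reads in each library. For RRM1 the exact Poisson 95% interval was 80.8 to 84.8 FPKM in replicate 1 and 82.4 to 86.6 in replicate 2. For RAD54B, the lowest member above 0, it was 0.109 to 0.498 and 0.142 to 0.589, and these intervals overlapped. All such intervals rest on the fewest possible reads, so they can be wider than those of the true reads.

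**Figure D5:**
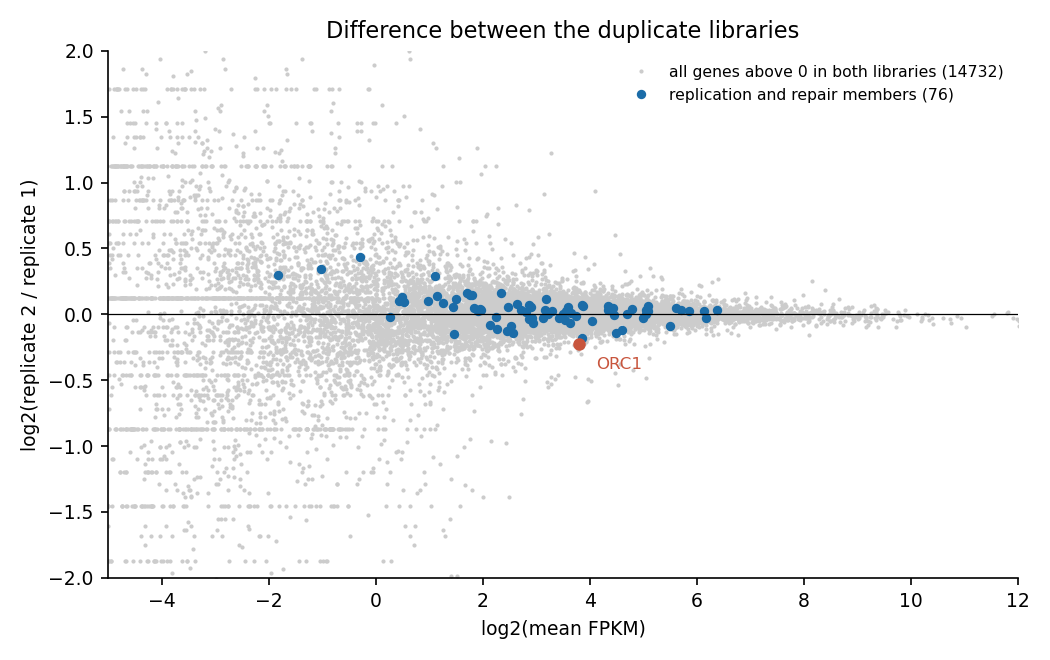
Difference between libraries, log2(replicate 2 / replicate 1), against log2(mean FPKM), for 14732 genes above 0 in both libraries (grey, 730 of them outside the plotted range) and 76 members (blue). ORC1, in red, is the member that passed the exact binomial test.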

How the data were processed

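Per the submitters' processing notes, TopHat2 2.0.12, HTSeq 0.6.1 and the pig build Sscrofa11.1 were used on the 2 libraries. Annotation release, strand and filters: not given in the sources used here. What the authors deposited is FPKM, 1 column per library. With HTSeq's default, reads shared by overlapping genes are dropped. By whole RefSeq spans, introns included and on either strand, 27 of the 75 members placed by symbol overlap another gene. How many of them lost reads was not tested.

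Identifiers were paired with symbols through a name table. The FPKM steps gave the library totals and, for 100% of 16327 genes, whole reads: each gene took the shortest length, between 50 and 30000 bp, that fits both columns to within 1.2 units of their rounding. These are the fewest reads possible, and true reads can be a multiple. On simulated data, 82.9% of genes were given their true reads and 0% were given more. The 0% was fixed in advance, because the shortest fitting length cannot exceed the true one when the totals are right. Libraries were compared with an exact binomial test (scipy 1.17.1).

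Levels were summarised as log2(FPKM + 1) without a filter. With 1 group there was no test between conditions. All members enter the counts, and the 3 highest and 3 lowest genes of each pathway list are named, except that the levels of a few genes are not reported here. Members, role groups and lists were chosen with earlier results of these data known, and complexes and gene pairs after values were seen. Alternatives concerned pseudocount, detection level, scaling, summary and single libraries.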

Additional observations from a re-analysis of the deposited data

How the results depend on the processing

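The count of members at 1 FPKM or more, 73, stayed between 67 and 75 with levels of 0.5 or 2 FPKM, on the TPM scale, and without either replicate. The members' median of 3.19 on the log2(FPKM + 1) scale became 3.04 with a pseudocount of 0.1, 3.30 with members of 0.1 FPKM or more, 3.26 as a mean and 4.53 on the TPM scale, which multiplies the values by 2.71 and 2.72. Without replicate 1 it was 3.18 and without replicate 2 it was 3.21. The replication median stayed above the repair median by 2.04, 1.80 and 1.99 with that pseudocount, filter and scale, by 1.82 as a difference of means, and by 1.93 and 1.84 without replicates 1 and 2. Over the 48 placed members that overlap no other gene, a choice made after seeing the data, the median was 3.35 and the difference 1.77 (28 replication and 17 repair members). A pseudocount of 0.1 lowers every log2 value by construction. With it, 13 of 13 role group medians moved down by more than the spread between libraries. The cause of the other shifts beyond the change of scale was not tested. ORC1 was also called with the ratio of summed reads and with genes of 10 or more reads. No paired analysis was possible because there is 1 group. Depth limits members with few reads, such as RAD54B with at least 8 and 9.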
